A study of Naumovozyma castellii with 6 samples.

Results

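Among the Xrn1-sensitive unstable transcripts (XUTs) of the budding yeast Naumovozyma castellii, 108 carry many open reading frames (ORFs) that are all short. They were taken from a deposited table of ORFs scored by ribosome profiling, an assay that sequences the RNA fragments protected by ribosomes. A XUT was kept when the table listed at least 10 ORFs for it, all under 200 nt. XUTs whose lowest start was at or under 50000 nt, or whose highest end lay within 50000 nt of the largest end on the chromosome, were left out. So were XUTs within 1000 nt of the span of a XUT on the other strand. Of 175 XUTs that met the number and length limits, 33 lay near a chromosome end and 45 faced an opposite XUT, 11 of them both. The 108 that remained hold 1614 of the 8742 ORFs in the table, which covers 1002 XUTs. The choice used the number, length and position of the ORFs, which are given below as a description. Reads, valid codons, phase scores and calls were not used.

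The series holds 6 libraries. The 3 wild-type libraries come from strain YAM2478 (MATalpha ura3-1 ho) and the 3 mutant libraries from strain YAM2890, which has the same markers and upf1::kanMX6, a replacement of UPF1 by a drug-resistance cassette. No change at XRN1 is listed for either strain. Cultures in YPD, a rich medium, were taken at 25 °C and an optical density of 0.5 after 15 min with cycloheximide (CHX), which stalls elongating ribosomes. The table merges libraries and names none in its columns, so each ORF has a single value, no replicate error exists, and upf1 could not be compared with wild type.

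XUTs are long noncoding RNAs of the cytoplasm that accumulate when the 5′-to-3′ exonuclease Xrn1 is missing. Upf1 is an RNA helicase at the core of nonsense-mediated decay, which degrades transcripts whose translation ends far from the 3′ end. A ribosome that scans from the cap and translates a short ORF near the 5′ end leaves such a long untranslated stretch downstream of that ORF. A translating ribosome moves 1 codon, or 3 nt, at a time, and footprints that keep to this step are called periodic.

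The deposited columns give, for each ORF, the whole number of reads, the number of valid codons, a phase score from 0 to 1 for the 3-nt periodicity, and a call of translating or nontranslating. The sources used here do not define a valid codon. Calls in this table had 5 valid codons or more and phase scores from 0.323 upward. Uncalled ORFs with 5 or more valid codons scored 0.317 at most, so among ORFs with that many the call followed the phase score. The library depth is unknown. The members' reads sum to 7249, or 3.41% of the 212510 reads in the table, and a read in a stretch shared by several ORFs enters each of them. The best set of ORFs that share no nucleotide holds 4448 of the members' reads, a lower bound on distinct reads. Intervals below are Wilson 95% intervals. They treat ORFs or XUTs as independent, cover counting error only, and do not cover variation between libraries. Shares of reads have no interval, since reads in shared stretches count more than once.

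The 108 XUTs were dense with small frames. They held a median of 14 ORFs (interquartile range 11 to 18, highest 38) over a median span of 998.5 nt, measured from the outermost ORF ends, with spans from 504 to 2764 nt. The middle ORF length was 45 nt (quartiles 27 and 78 nt), and lengths spanned 15 to 198 nt. The longest ORF of a XUT had a median of 150 nt and was as short as 75 nt. Overlap was common: 1050 ORFs (65.1%, 62.7 to 67.3%) shared a nucleotide with another ORF of their XUT, in groups of up to 7. No overlapping pair was in the same reading frame. Of 226 ORFs that lay wholly inside another, none had more reads than the outer ORF, as a count over all positions of an ORF requires.

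Footprints were sparse but present on most of these transcripts. Of the 108 XUTs, 96 (88.9%, 81.6 to 93.5%) had at least 1 read, against 75.2% of all XUTs in the table. The other 12 had no read in any listed ORF, and at unknown depth that does not show that ribosomes were absent. Reads per XUT ran from 0 to 3606 with a median of 9.5 and quartiles of 3 and 28. Only 6 XUTs had 100 reads or more. By ORF, 1256 of 1614 (77.8%, 75.7 to 79.8%) had no read, 118 had 1 read and 68 had 10 or more. ORFs with reads made up 22.2% (20.2 to 24.3%), against 31.1% over the whole table. The share of XUTs with a read is set in part by the choice of XUTs with many ORFs.

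By the authors' call, 54 of the 1614 ORFs were translating (3.35%, 2.57 to 4.34%), against 6.60% of all ORFs in the table and 7.34% of the 7128 ORFs outside the set. No test of that difference was made. The 54 calls lay in 39 of the 108 XUTs (36.1%, 27.7 to 45.5%), against 27.0% of all XUTs. The number of calls was 1 in 29 XUTs, 2 in 7, 3 in 2 and 5 in 1, and 69 XUTs had no called ORF. Since these XUTs were chosen for their many ORFs, the share of XUTs with a call and the share of ORFs called are set by the choice in part. Called ORFs held 6080 of the 7249 reads (83.9%). Of these, 3592 lay in 3 overlapping called ORFs of XUT0176, where reads in shared stretches count more than once. Every call had at least 5 valid codons, so this share is set in part by the rule for a call.

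Signal was highest at the 5′ end. The 108 first ORFs, those whose 5′ ends lie farthest upstream, had reads in 66 cases (61.1%, 51.7 to 69.8%), and 57 of the 112 ORFs that began 1 to 99 nt further on had reads (50.9%, 41.8 to 60%). From 100 to 249 nt the share was 21.2% (16.2 to 27.2%, 44 of 208 ORFs). Beyond that it was 15.6% (12.3 to 19.7%) from 250 to 499 nt, 16.2% (13.4 to 19.6%) from 500 to 999 nt and 16.5% (12.6 to 21.3%) from 1000 nt on. In steps of 50 nt, the share with reads was 59.6% at 0 to 49 nt, 45.8% at 50 to 99 nt and 23.2% at 100 to 149 nt, and between 10.3% and 23.1% in every later step up to 999 nt. Over the whole table the shares with reads were 46.8% at 0 to 99 nt, 30.5% at 100 to 249 nt, 27.9% at 250 to 499 nt, 24.2% at 500 to 999 nt and 23.9% from 1000 nt on, so the share was highest near the 5′ end there too. Without XUT0938 the members' share from 1000 nt on was 11.7% (8.30 to 16.2%). Distance is counted from the 5′ end of the first listed ORF, because the table holds no transcript ends.

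**Figure D1:**
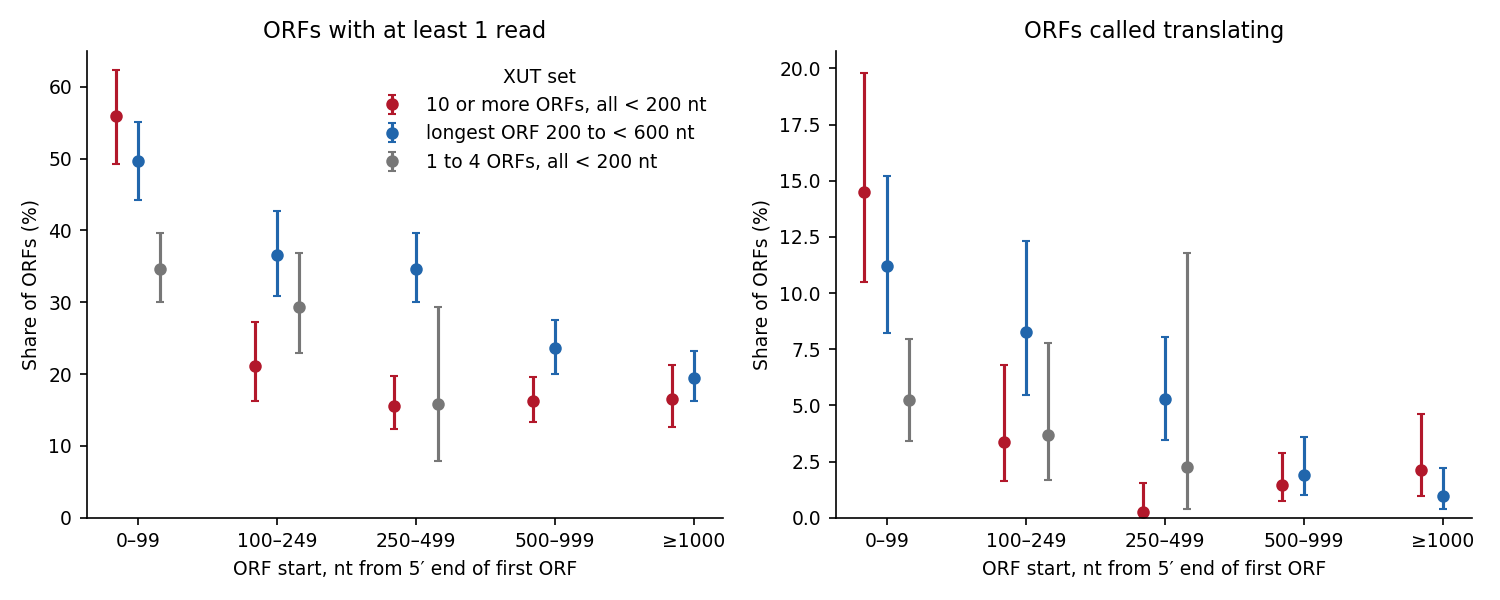
Share of ORFs in percent (vertical axis) with at least 1 read (left) and called translating (right) by the distance of the ORF start from the 5′ end of the first ORF in nt (horizontal axis), with Wilson 95% intervals as bars. Red points are the 108 XUTs with 10 or more ORFs all under 200 nt, blue points XUTs whose longest ORF has from 200 to under 600 nt and grey points XUTs with 1 to 4 ORFs all under 200 nt; bins with fewer than 20 ORFs are not drawn. The red points fall from 55.9% to 15.6% on the left and from 14.5% to 0.274% on the right within 499 nt.

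Calls were also most frequent near the 5′ end. At 0 to 99 nt 32 of 220 ORFs were called (14.5%, 10.5 to 19.8%), of which 16 were first ORFs and 16 began further on. At 100 to 249 nt 7 of 208 were called (3.37%, 1.64 to 6.78%), at 250 to 499 nt 1 of 365 (0.274%, 0.0484 to 1.54%), at 500 to 999 nt 8 of 542 (1.48%, 0.750 to 2.89%) and from 1000 nt on 6 of 279 (2.15%, 0.989 to 4.61%). Of the last 6 calls 4 lay in XUT0938, and without it 2 of 257 ORFs were called (0.778%, 0.214 to 2.79%). Over the whole table the shares called were 11.7%, 5.80%, 5.35%, 5.10% and 4.29% in the same order. Split at 250 nt, 9.11% (6.74 to 12.2%) of 428 ORFs were called on the near side and 1.26% (0.768 to 2.08%) of 1186 on the far side. The whole table had 9.16% (8.24 to 10.2%) on the near side, about the members' share, and 4.94% (4.39 to 5.56%) on the far side. Every call had at least 5 valid codons. Among members' ORFs with that many, 39 of 42 (92.9%) were called before 250 nt and 15 of 16 (93.8%) from there on. The share called among them was thus alike on both sides. By listed position, the share called was 14.8% for ORF 1, 13.9% for ORF 2, 6.48% for ORF 3 and 1.85% for ORF 4, each over 108 ORFs.

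**Figure D2:**
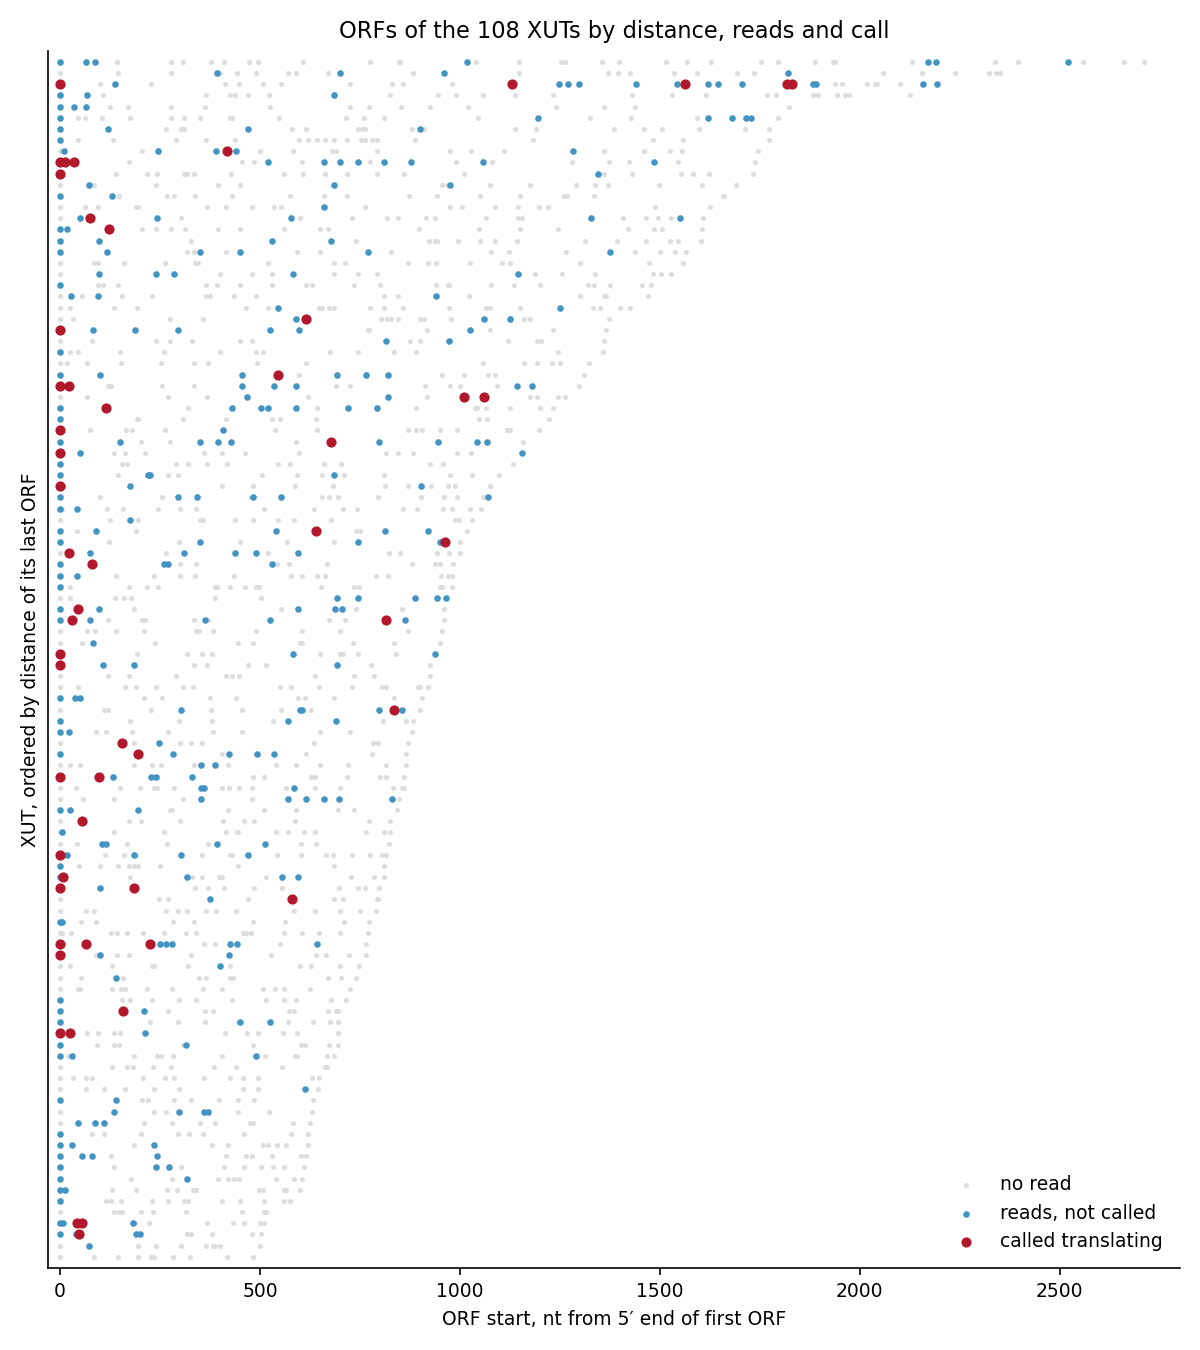
Every ORF of the 108 XUTs, 1 row per XUT ordered by the distance of its last ORF, placed by the distance of its start from the 5′ end of the first ORF in nt (horizontal axis). Grey dots are ORFs without reads, blue dots ORFs with reads that were not called and red dots the 54 called ORFs, 32 of which lie at 0 to 99 nt.

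Higher signal near the 5′ end was also seen with the XUT as the unit. In 75 of the 96 XUTs with reads (78.1%, 68.9 to 85.2%) the reads per codon, summed over ORFs, were higher before 250 nt than from 250 nt on, and in 21 they were lower. The median over all 108 XUTs was 0.0635 reads per codon before 250 nt (interquartile range 0.00916 to 0.227) and 0.00708 from there on (0 to 0.0304). In 41 of the 74 XUTs with at least 5 reads (55.4%, 44.1 to 66.2%) the ORF with most reads began at 0 to 99 nt, and in 22 (29.7%, 20.5 to 40.9%) at 250 nt or more. Of the 39 XUTs with a call, 30 had one at 0 to 249 nt, 9 had calls only from 250 nt on, and 2 had calls on both sides. The most upstream call was the first ORF in 16 of them, ORF 2 or 3 in 14 and ORF 4 or later in 9.

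A few XUTs dominated the read totals. ORFs starting at 0 to 99 nt held 5067 of 7249 reads (69.9%), but 3592 of these belonged to XUT0176. Without XUT0176 the share was 1475 of 3643 reads (40.5%). Reads per codon over all ORFs in a bin were 1.09 at 0 to 99 nt, 0.125 at 100 to 249 nt, 0.0364 at 250 to 499 nt, 0.0319 at 500 to 999 nt and 0.212 from 1000 nt on. Without XUT0176 and XUT0938, the members with most reads, the values were 0.319, 0.127, 0.0366, 0.0318 and 0.0399, so the rise from 1000 nt on rested on XUT0938 alone.

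The share with reads was higher near the 5′ end in each of 4 length classes, and higher in longer ORFs. First ORFs had a median of 58.5 nt (interquartile range 32.2 to 93 nt) and later ORFs of 45 nt (27 to 78 nt). Among ORFs of 15 to 29 nt, 32.7% of 52 had reads at 0 to 99 nt and 10.6% of 377 from 100 nt on. Among those of 30 to 59 nt the shares were 54.4% of 68 and 12.8% of 509, among those of 60 to 119 nt 66.7% of 78 and 24.4% of 369, and among those of 120 to 199 nt 77.3% of 22 and 28.8% of 139. Reads per codon did not rise with length. From 100 nt on they were 0.162, 0.129, 0.0613 and 0.0312 in the order of the classes, and at 0 to 99 nt 1.99, 0.540, 1.58 and 0.289. These values include XUT0176 and XUT0938, the members with most reads, and rest on a few ORFs. From 100 nt on, 271 of the 423 reads in the shortest class lay in the 27-nt ORF of XUT0049 at 194 nt. The 917 reads of the next class include 243 and 339 in overlapping ORFs of XUT0938. Values by length without these XUTs were not computed, so the fall from 100 nt on is not read as an effect of length. From the shortest class to the longest, the shares called were 3.85% and 27.3% at 0 to 99 nt and 0.531% and 5.04% further on. With at least 5 valid codons in each call, a 15-nt ORF could be called only if all its codons were valid. Called ORFs had a median length of 85.5 nt (interquartile range 54 to 112.5 nt), and 38 of 54 were 60 nt or longer.

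XUT0176 (chromosome 1, 1924895 to 1926646, minus strand) showed the 5′ pattern at the highest coverage. It lists 23 ORFs over 1752 nt and had 3606 reads, 49.7% of all reads of the set, of which 1646 at least were distinct. The first ORF, of 72 nt (1926575 to 1926646), had 1634 reads, 15 valid codons of 24 and a phase score of 0.487. A 27-nt ORF inside it, beginning 13 nt downstream (1926607 to 1926633), had 572 reads and scored 0.747. A 102-nt ORF beginning at 35 nt (1926510 to 1926611) had 1386 reads and scored 0.692, with 6 of 34 codons valid. All 3 were called, in 3 different frames, and the 72-nt and 102-nt ORFs share 37 nt. The other 20 ORFs, which begin at 172 nt or later, had 14 reads in all and no call.

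XUT0247 and XUT0067 had the same layout at lower coverage. In XUT0247 (chromosome 1, 2877774 to 2878311, plus strand) 327 of 328 reads were in the 4 ORFs that begin within 99 nt. At least 206 of the 328 reads of XUT0247 were distinct. Its first ORF, of 15 nt, had 23 reads on 4 of 5 codons and the second, of 36 nt, had 21 reads, and neither was called. The called ORFs were one of 129 nt at 43 nt (2877817 to 2877945), with 182 reads, 25 valid codons, the most among the 54 calls, and score 0.535, and one of 42 nt nested in it (2877828 to 2877869), with 101 reads and score 0.776. In XUT0067 (chromosome 1, 745278 to 746599, minus strand) 264 of 273 reads were in the first 2 ORFs. The first, of 39 nt (746561 to 746599), had 157 reads on 11 of 13 codons and scored 0.843. The second, of 27 nt at 23 nt (746550 to 746576), scored 0.665 with 107 reads. Both were called, and they overlap by 16 nt in different frames. The 16 ORFs further along had 9 reads together. At least 163 of the 273 reads of XUT0067 were distinct.

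**Figure D3:**
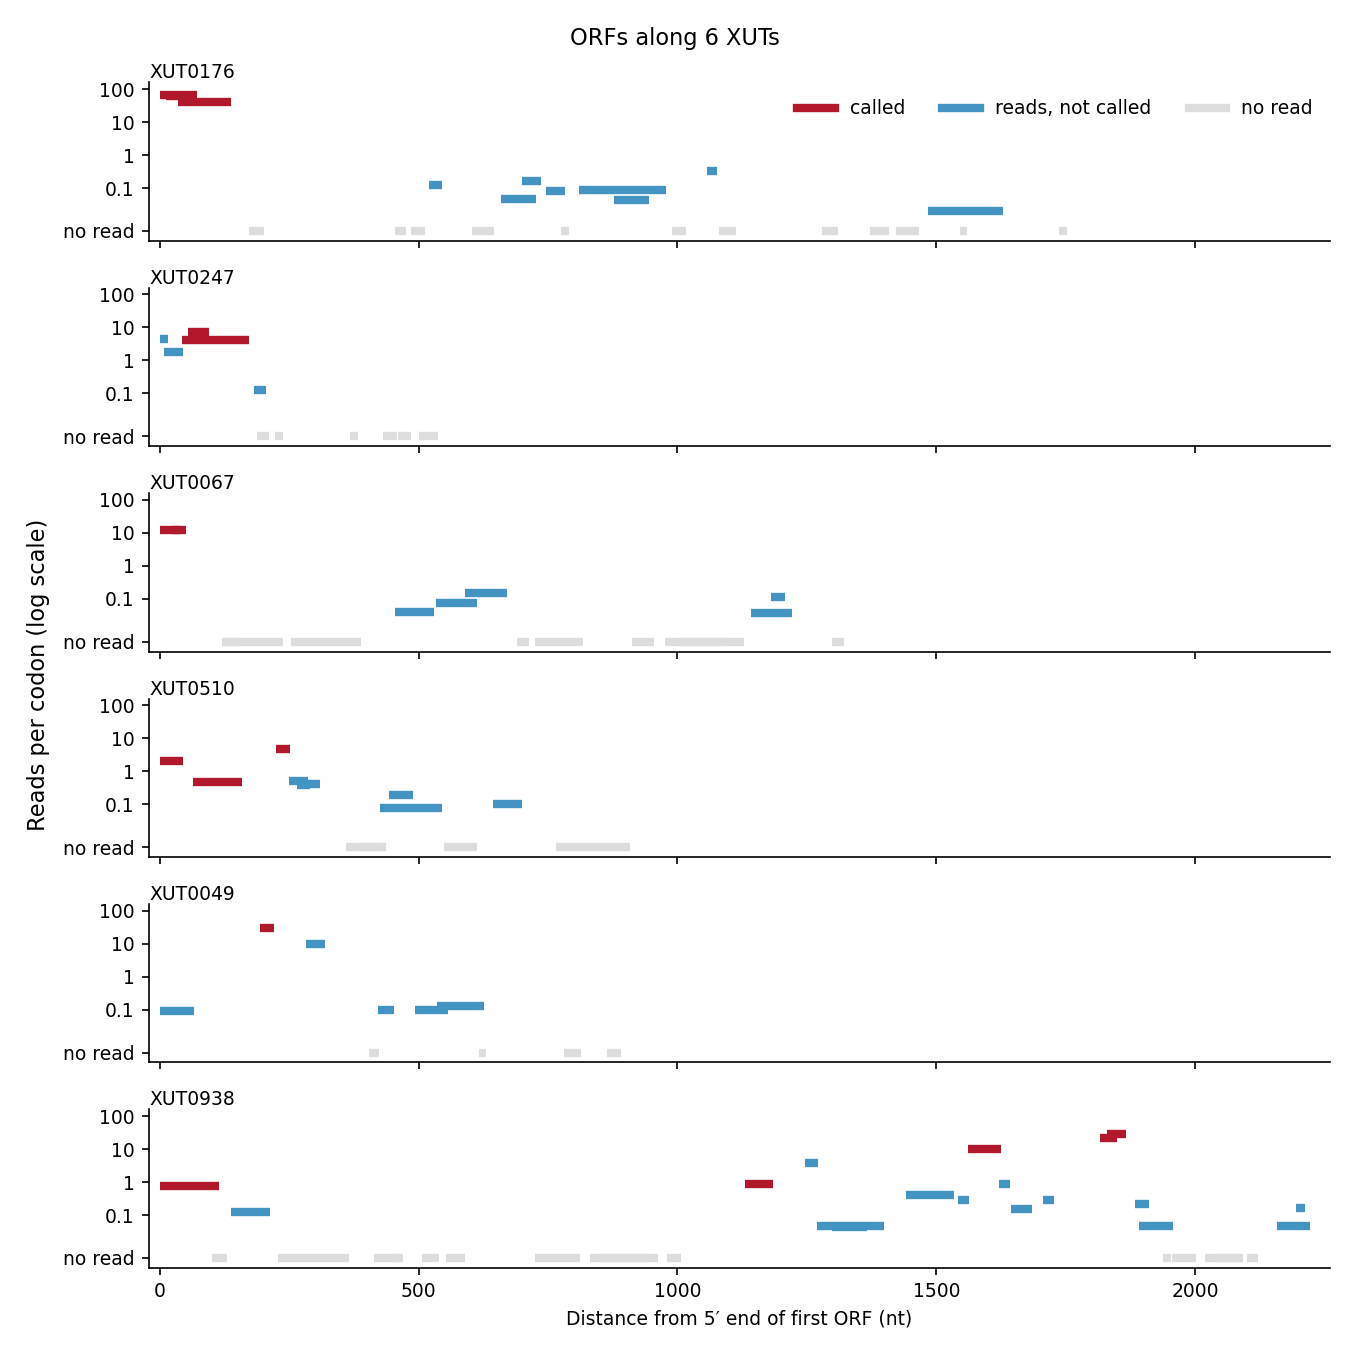
Reads per codon (vertical axis, log scale) of each ORF of 6 XUTs, drawn as a bar from its 5′ to its 3′ end by distance from the 5′ end of the first ORF in nt (horizontal axis). Red bars are called ORFs, blue bars have reads and were not called, and grey bars have no read. XUT0176, XUT0247 and XUT0067 have their called ORFs at 0 to 54 nt, while XUT0938 has 4 called ORFs from 1130 to 1830 nt.

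Calls could also lie in series or skip the first ORF. XUT0510 (chromosome 3, 954779 to 955687, minus strand) had 3 called ORFs in series with no overlap. The first, of 45 nt (955643 to 955687), had 31 reads and scored 0.758. The second, of 93 nt at 65 nt (955530 to 955622), had 15 reads and scored 0.623. The third, of 27 nt at 224 nt (955437 to 955463), had 44 reads and scored 0.692. In XUT0049 (chromosome 1, 480850 to 481740, plus strand) the first ORF had 2 reads. The 27-nt ORF at 194 nt (481044 to 481070) was called with 271 reads on 6 of 9 codons, scoring 0.634. The 36-nt ORF at 283 nt (481133 to 481168) scored 0.271 with 120 reads on 10 of 12 codons and was not called.

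XUT0938 (chromosome 9, 269978 to 272199, plus strand) had most of its reads far from the 5′ end. It lists 34 ORFs over 2222 nt, had 901 reads, and its 5 called ORFs were the most in any member. Of the 901 reads at least 646 were distinct. The first ORF, of 114 nt (269978 to 270091), had 29 reads, 10 valid codons and a score of 0.546. From 228 to 980 nt 9 ORFs had no read. Further on, the 54-nt ORF at 1130 nt (271108 to 271161) had 16 reads and scored 0.729. The 63-nt ORF at 1562 nt (271540 to 271602) had 207 reads on 15 of 21 codons and scored 0.409. The 33-nt ORF at 1817 nt (271795 to 271827) had 243 reads and scored 0.758. It overlaps by 20 nt the 36-nt ORF at 1830 nt (271808 to 271843), which had 339 reads on 11 of 12 codons and a score of 0.396. In all 869 of the 901 reads were in ORFs from 250 nt on.

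The other calls from 250 nt on were spread over 10 XUTs. In XUT0157 (chromosome 1, minus strand), none of the ORFs that begin before 250 nt had a read, and 98 reads lay further along. They include 45 in a 102-nt ORF at 1009 nt (1707308 to 1707409, score 0.514) and 51 in an 87-nt ORF at 1061 nt (1707271 to 1707357, score 0.420), which overlap by 50 nt. At least 53 of the 98 reads were distinct. The longest called ORF of the set, of 189 nt in XUT0490 (chromosome 3, 778235 to 778423, minus strand), began at 545 nt and had 47 reads on 12 of 63 codons, with a score of 0.394. A 171-nt ORF of XUT0712 (chromosome 6, 276360 to 276530, plus strand) at 616 nt scored 0.744 with 17 reads. The remaining 7 calls, in XUT0057, XUT0114, XUT0269, XUT0329, XUT0591, XUT0643 and XUT0663, began between 418 and 962 nt and had 5 to 17 reads each.

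Calls in these XUTs rested on few codons. Median reads of the 54 called ORFs were 19 (interquartile range 15 to 44.8), median valid codons 7 (5 to 8.75) and median coverage 0.743 reads per codon (0.492 to 2.06), while the median phase score was 0.614 (0.508 to 0.725). In 42 of them (77.8%, 65.1 to 86.8%) 5 to 9 codons were valid, and in 15 exactly 5. Outside the set 285 of 523 called ORFs (54.5%, 50.2 to 58.7%) had 5 to 9 valid codons. All 523 had a median of 44 reads and a median score of 0.591. Their lengths had a median of 87 nt and reached 3393 nt, while ORFs of the set were chosen under 200 nt. The contrast in valid codons and reads is thus set by the choice in part. In the 108 XUTs all 179 ORFs with exactly 1 valid codon had a phase score of 1. Only 12 calls had 10 or more valid codons (0.743% of the members' ORFs), in 9 XUTs, and 29 scored at least 0.6 (1.80%), in 22 XUTs. Of all ORFs listed, 2.86% and 3.28% met these stricter rules.

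**Figure D4:**
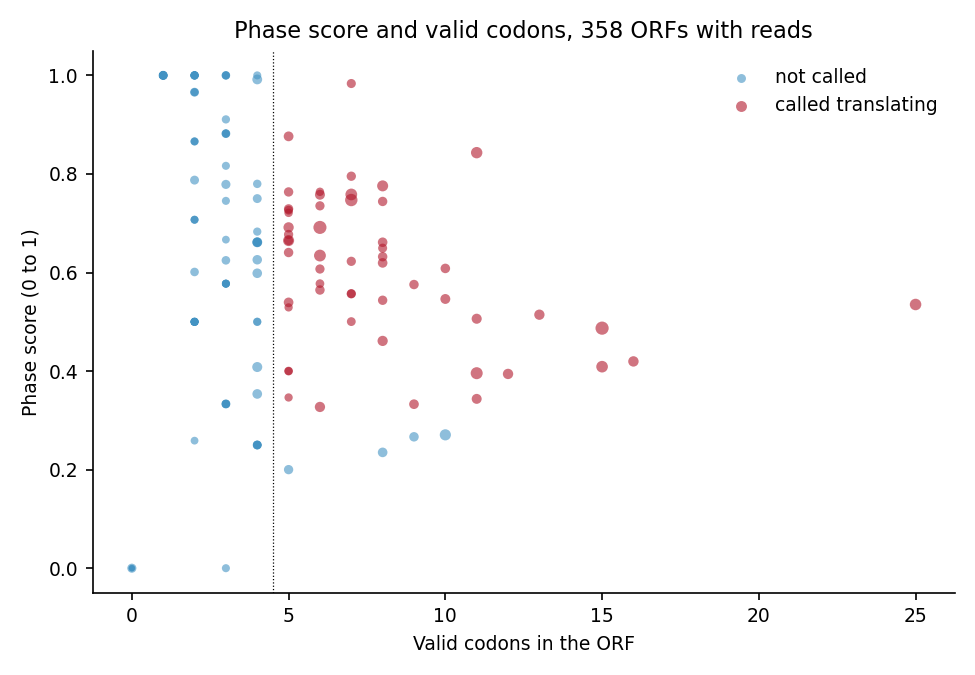
Phase score (vertical axis, 0 to 1) against the number of valid codons (horizontal axis) for the 358 ORFs with reads in the 108 XUTs, with point size growing with the log of the read count. Red points are the 54 called ORFs and blue points the others; the dotted line separates 4 from 5 valid codons, and 4 ORFs to its right were not called.

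Among calls with at least 20 reads, the highest score was 0.876, in a 36-nt ORF of XUT0413 at 22 nt (chromosome 2, 1686615 to 1686650, minus strand) with 26 reads and 5 valid codons. The next were the 39-nt ORF of XUT0067 (0.843) and the 42-nt ORF of XUT0247 (0.776), described above. The others among the 10 highest were 1 ORF of XUT0938, 2 of XUT0510, 2 of XUT0176 and the 27-nt ORF of XUT0067, already given, and a 78-nt first ORF of XUT0644 (chromosome 5, 430986 to 431063, minus strand; 21 reads, score 0.661). At the other end of coverage, some of the longest called ORFs had few reads. A 156-nt ORF of XUT0054 at 156 nt (chromosome 1, 517120 to 517275, minus strand) had 7 reads and the 156-nt first ORF of XUT0503 (chromosome 3, 895961 to 896116, minus strand) had 6. The 150-nt first ORF of XUT0671 (chromosome 5, 722571 to 722720, minus strand) had more, with 31 reads on 11 of 50 codons and a score of 0.344.

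Of ORFs with 5 or more valid codons, 88.1% were called over the whole table. The share was 78.4% of 116 where the longest ORF of the XUT had from 200 to under 600 nt. In XUTs with 1 to 4 ORFs, all under 200 nt, it was 81.8% of 33. Both comparison sets kept the same position limits, and no difference was tested. Among the members 54 of 58 were called (93.1%, 83.6 to 97.3%), an interval that holds the 88.1% and lies above 78.4% and 81.8%. The 4 that were not scored 0.200 to 0.271 and include the 36-nt ORF of XUT0049 above and the 198-nt first ORF of XUT0457 (chromosome 3, 376562 to 376759, minus strand; 22 reads, score 0.235). A further 22 ORFs stopped at 4 valid codons, 12 of them at 0 to 99 nt, and 17 of the 22 scored at least as high as the lowest call. Scores from few valid codons can be high, since all 179 ORFs with 1 valid codon scored 1. Such scores therefore do not show that these ORFs were translated. The 15-nt first ORF of XUT0331 (chromosome 2, 753932 to 753946, minus strand) scored 0.992 from 27 reads on 4 of its 5 codons. A 33-nt ORF of XUT0146 at 56 nt (chromosome 1, 1585637 to 1585669, minus strand) scored 0.408 from 33 reads. A 24-nt ORF of XUT0938 at 1247 nt (271225 to 271248) scored 0.661 from 31 reads. The median over the 304 ORFs with reads and no call was 2 reads and 1 valid codon.

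Pairs of called ORFs that overlap were few but included the ORFs with most reads. Of the 54 called ORFs 15 overlapped another called ORF, forming 9 pairs in 7 XUTs, each pair in different frames. The 54 calls thus fell into 46 groups that shared no nucleotide, and 26 of these (56.5%, 42.2 to 69.8%) began at 0 to 99 nt. In XUT0433 (63 and 54 nt, sharing 37 nt) the overlapping ORFs had 18 and 10 reads and scores of 0.632 and 0.727, and in XUT0671 (150 and 90 nt, sharing 52 nt) 31 and 22 reads and scores of 0.344 and 0.619. Reads in the shared stretch count for both members of a pair.

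Of the 5 members with most ORFs, 4 had few reads and no call. XUT0486, with 38 ORFs over 2764 nt the member with most, had 16 reads in 7 ORFs and no call. XUT0212 with 28 ORFs and XUT0159 with 26 had 9 reads each, and XUT0221 with 24 had 33 reads, all without a call. The fifth was XUT0938, with 34 ORFs. The 7 XUTs with 2 calls were XUT0067, XUT0114, XUT0157, XUT0247, XUT0433, XUT0671 and XUT0800. XUT0114, with 15 ORFs and 37 reads, had a call on each side of 250 nt, a 39-nt ORF at 29 nt with 15 reads and a 129-nt ORF at 816 nt with 9 reads. XUT0800, with 12 ORFs, had 36 reads, 12 at 0 to 99 nt and 24 at 100 to 249 nt, and a call in each stretch.

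The same profile was drawn for XUT sets under the same position limits. In 155 XUTs whose longest ORF had from 200 to under 600 nt, 49.7% of ORFs at 0 to 99 nt had reads (44.2 to 55.1%), then 36.6% at 100 to 249 nt (30.9 to 42.7%), 34.7% at 250 to 499 nt (30 to 39.6%), 23.6% at 500 to 999 nt (20.0 to 27.6%) and 19.5% from 1000 nt on (16.3 to 23.2%). The shares called there were 11.2%, 8.27%, 5.29%, 1.91% and 0.967%. For the share with reads, the many-ORF set had intervals below those of these XUTs at 100 to 249 nt, 250 to 499 nt and 500 to 999 nt. Its intervals there were 16.2 to 27.2%, 12.3 to 19.7% and 13.4 to 19.6%. At 0 to 99 nt and from 1000 nt on the intervals with reads overlapped. For the share called, its interval lay below only at 250 to 499 nt, at 0.0484 to 1.54% against 3.45 to 8.03%, and the intervals overlapped at all other distances. Each of these XUTs was chosen for an ORF of 200 nt or more, whose reads in a shared stretch also enter the ORFs that overlap it. In 219 XUTs with 1 to 4 ORFs, all under 200 nt, 34.6% of ORFs had reads at 0 to 99 nt (30 to 39.6%), 29.4% at 100 to 249 nt (23.0 to 36.9%), and 15.9% at 250 to 499 nt (7.93 to 29.4%, 7 of 44), and 5.25%, 3.68% and 2.27% were called. Higher reads per codon before 250 nt than after were found in 371 of 509 XUTs outside the set that had ORFs on both sides and reads (72.9%, 68.9 to 76.6%), against the 78.1% given above. These differences were not tested.

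XUTs on either side of the selection limits were as follows. The 13 members with exactly 10 ORFs held 4 called ORFs of 130, and 22 XUTs with 9 ORFs under the same limits held 5 of 198. The 18 members whose longest ORF had 180 nt or more held 7 called ORFs of 299, and 18 XUTs with 10 or more ORFs and a longest ORF from 200 to under 220 nt held 7 of 366. By strand, 17 of 669 ORFs were called on the plus strand (2.54%, 1.59 to 4.03%) and 37 of 945 on the minus strand (3.92%, 2.85 to 5.35%), with overlapping intervals.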

How the data were processed

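The series has 3 wild-type and 3 upf1 Ribo-seq libraries and a single merged table of ORFs, which does not say which libraries it merges. Trim Galore and HISAT2 are named in the submitters' processing notes. The sources used here do not give the build, the read-length filter or the scoring program. The deposited read counts are whole numbers per ORF, and neither the header nor the labels record a normalization. The deposited phase score lies between 0 and 1, the deposited fraction of valid codons is their number over all codons, and the deposited read density is a signal of reads per codon. The fraction and the density were checked against the other columns and matched in all 8742 rows (tolerance 1e-06). As no column names a library, the edgeR test foreseen for upf1 against wild type was not run. Library depth is unknown.

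From these columns, members, distances, overlap groups and shares with Wilson 95% intervals were computed with pandas 2.3.3, numpy 2.4.6 and scipy 1.17.1 under Python 3.11.15 and checked on simulated data. ORFs are not replicates, so no test was made. Named are the called ORFs with most reads (10), highest phase score (10, at least 20 reads), greatest length (5) and distance (5, at least 20 reads), the 5 uncalled with most reads, and the 5 XUTs with most ORFs, calls and reads, with ties taken by XUT number. Other ORFs and XUTs were named after their values were seen. The members and rules were chosen with earlier results of these data known. Starts and ends are as in the table. Gene annotation was not used here, since the table names no build.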

Additional observations from a re-analysis of the deposited data

How the results depend on the processing

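No paired analysis was possible because the reads of merged libraries cannot be separated; no replicate could be left out either. Leaving out XUTs that overlap annotated genes was not run, since the table names no build. Under the 13 settings run, 46 of the 78 recomputed values that could move stayed close to the reported one, within its Wilson 95% interval or, for counts, within 1.5 times; shares with reads do not depend on the rule for a call, so their 4 values under stricter rules are not counted. With a phase score of at least 0.6 there were 29 called ORFs (1.80%) in 22 XUTs, 5.14% within and 0.590% beyond 250 nt. With at least 10 valid codons there were 12 (0.743%) in 9 XUTs, 1.64% within and 0.422% beyond. Among ORFs with at least 10 reads 69.1% were called, 72.9% within and 60% beyond, and 100% on both sides had reads by construction. With at least 15 ORFs per XUT there were 22 calls in 14 XUTs, and 33.9% had reads within 250 nt. With the longest ORF under 150 nt there were 32 calls (4.37%) in 21 XUTs, and 19.9% had reads beyond. With no filter on chromosome ends or opposite XUTs there were 103 calls in 69 XUTs, and 19.6% had reads beyond. With ORFs of at least 30 nt 44.9% had reads within, and with 1 ORF per overlap group 18.7% beyond. With the limit at 150 nt 48.1% had reads within it, at 500 nt 28.2% (5.04% called), and at 100 nt, a limit added after the data were seen, 55.9% (14.5% called). Leaving out the XUT with most reads, or both XUTs with most reads (added later), kept the 7 summary counts and shares close, but reads per codon at 0 to 99 nt went from 1.09 to 0.319 without both, and without XUT0938 the share called from 1000 nt on went from 2.15% to 0.778%. In all 13 settings the share called was higher within the limit than beyond it. With at least 10 valid codons the intervals overlapped, at 0.794 to 3.34% within and 0.180 to 0.983% beyond. They also overlapped among ORFs with at least 10 reads, at 59.0 to 83.4% within and 38.7 to 78.1% beyond. Of 22 named called ORFs, 13 scored at least 0.6 and 9 had 10 or more valid codons. With a median of 19 reads per called ORF and no depth per library, ORFs without reads or calls cannot be told from ORFs translated below detection.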

Other observations

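Some members without any call had most of their reads away from the 5′ end; these were picked after their values were seen. XUT0221 (chromosome 1, 2587306 to 2589118, plus strand) had 33 reads, of which 32 were in ORFs from 250 nt on and at least 14 were distinct. In XUT0933 (chromosome 9, minus strand) 24 of 25 reads lay from 250 nt on. In XUT0331 (chromosome 2) and XUT0146 (chromosome 1), also without a call, 32 of 33 and 60 of 62 reads lay at 0 to 99 nt. At least 35 of the 62 reads of XUT0146 were distinct.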
